A study of Mus musculus with 9 samples.

Results

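Translation initiation and elongation factors were measured as mRNA in mouse pancreas. The genes were taken by name: every row whose symbol starts with Eif or Eef followed by a digit and whose mean normalized count over the 9 libraries was at least 10. The eIF2-alpha kinases, the 4E-binding proteins, pseudogenes, Eif4b, Eef2k and Eif2s3y were left out by name. Of 71 names that fitted, 55 passed the minimum mean, out of 11953 genes that passed it and 46078 in the table. Of the 16 that did not pass, 15 were listed at 0 in every library, and the other was Eef1a2, the eEF1A form of muscle and nerve, at 1.07 to 11.7 normalized counts. A normalized count is a read count divided by a size factor of its library.

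The study compared 3 groups of 8-week-old mice, with 3 pancreases in each: mice labelled S6k2 RK, mice labelled Snd1 KI, and their wild-type (WT) littermates. By its title it concerns the reading of methylated S6K2 by the Tudor domain of SND1. S6K2 is a ribosomal protein S6 kinase of the mTORC1 pathway, encoded by Rps6kb2, and SND1 is a nuclease-like RNA-binding protein. The labels do not spell out RK or KI, name no promoter or Cre, and give neither sex nor strain. The libraries were made from poly(A) RNA of powdered whole pancreas, so a lower value cannot be told apart from fewer cells of a type or less RNA per cell.

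Initiation factors bring the initiator tRNA and the capped mRNA to the small ribosomal subunit, and elongation factors then deliver aminoacyl-tRNA and move the ribosome along the message. The acinar cell, which fills most of the pancreas, makes secretory protein at one of the highest rates known in mammals. S6 kinases act on this machinery by phosphorylation, for instance of eIF4B, of the eIF4A inhibitor PDCD4 and of eEF2 kinase, and many factor mRNAs carry a 5′ terminal oligopyrimidine (TOP) tract through which mTORC1 controls their translation.

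Libraries held 13461427 to 21034501 reads in genes. A list of digestive enzyme and mitochondrially encoded genes took 75.2 ± 0.245% of reads in WT (SD, n = 3), 78.3 ± 0.387% in Snd1 KI and 79.7 ± 0.828% in S6k2 RK. Against that, the 14 measured T cell markers were lower in both mutants: their list summed to 403 to 1129 normalized counts in WT, 47.2 to 95.2 in Snd1 KI and 43.3 to 47.0 in S6k2 RK, where Trac was at 0. The B and plasma cell list, with 10 of 12 measured markers lower in Snd1 KI and 12 of 12 in S6k2 RK, summed to 1381 to 3043, 661 to 909 and 200 to 1208. Macrophage markers were lower in S6k2 RK for 6 of 10 genes (2804 to 3563 summed in WT, 1197 to 1754 in S6k2 RK) and adipocyte markers for 7 of 10 (2850 to 4828 and 2278 to 3588). Endothelial markers were lower for 4 of 10 genes in S6k2 RK and 2 of 10 in Snd1 KI (2677 to 3359 summed in WT, 1969 to 2742 and 2077 to 2509). Stromal markers were lower for 2 of 10 in each mutant, but their sum did not fall (5584 to 7867 in WT, 5707 to 8713 in S6k2 RK and 7850 to 9947 in Snd1 KI). Duct markers were higher for 2 of 8 in each mutant (2238 to 2399 in WT, 3014 to 3519 in S6k2 RK and 3031 to 3246 in Snd1 KI). Acinar enzyme genes were higher for 6 of 18 in S6k2 RK and 1 of 18 in Snd1 KI, and acinar transcription factor genes for 4 of 6 and 1 of 6, with 1 lower in each. Of all genes in the tests below, 5.2% were higher and 6.83% lower in S6k2 RK, and 2.4% and 3.2% in Snd1 KI. The part of these lists in the factor values was not tested. Snd1 mRNA itself read 1893 to 2180 normalized counts in WT, 2722 to 3181 in Snd1 KI and 2316 to 3147 in S6k2 RK. Rps6kb2 read 53.1 to 65.8 in WT and 36.4 to 52.7 in Snd1 KI. In S6k2 RK it read 56.0 in replicate 1, within the WT range, and 25.5 and 24.7 in replicates 2 and 3. These levels of Snd1 and Rps6kb2 mRNA do not check the alleles.

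Promoter sequences are shown for the factors whose mRNA differed in the tests below, because most of them carry the same 6 letters next to the start. RefSeq promoters of build GRCm38.p6 were matched for 42 of the 55 genes, and for 7 of the 9 genes higher in S6k2 RK (Eef1g and Eef1d are named only) and for Eif5a2, which was lower in Snd1 KI. Each line gives 60 bases before the listed start and 30 from it on, on the coding strand, with CGGAAG or its reverse complement CTTCCG in capitals. CGGAAG holds the core bound by ETS-family factors.
Eef2, chr10:81176571-81176660, plus strand: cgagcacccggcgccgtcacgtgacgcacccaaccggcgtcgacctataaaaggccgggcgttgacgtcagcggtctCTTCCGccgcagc
Eif2b4, chr5:31193110-31193199, minus strand: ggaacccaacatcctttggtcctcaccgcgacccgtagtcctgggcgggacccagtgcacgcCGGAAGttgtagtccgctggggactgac
Eif3a, chr19:60790664-60790753, minus strand: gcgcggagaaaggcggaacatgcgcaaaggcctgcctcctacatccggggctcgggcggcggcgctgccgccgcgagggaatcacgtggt
Eif3c, chr7:126566337-126566426, minus strand: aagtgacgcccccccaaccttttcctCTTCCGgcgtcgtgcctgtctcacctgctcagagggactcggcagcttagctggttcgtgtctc
Eif3g, chr9:20898561-20898650, minus strand: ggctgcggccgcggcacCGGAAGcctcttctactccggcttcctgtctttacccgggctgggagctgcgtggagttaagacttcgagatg
Eif3l, chr15:79075163-79075252, plus strand: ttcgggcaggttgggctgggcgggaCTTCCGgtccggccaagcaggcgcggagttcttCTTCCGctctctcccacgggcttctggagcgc
Eif3m, chr2:105016998-105017087, minus strand: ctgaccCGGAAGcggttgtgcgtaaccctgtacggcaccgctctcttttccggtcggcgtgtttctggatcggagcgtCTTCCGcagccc
Eif5a2, chr3:28781217-28781306, plus strand: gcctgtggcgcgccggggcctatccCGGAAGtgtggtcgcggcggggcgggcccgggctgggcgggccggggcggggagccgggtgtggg

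Over the 300 bases from 250 before to 50 after the start, CGGAAG on either strand stood in 6 of the 7 genes higher in S6k2 RK, all but Eif3a. It stood in 18 of the 35 other factors with a promoter (51.4%), in 34.9% of all genes tested with a promoter and in 18.8% of all genes of the RefSeq table. CACGTG, the E-box read by MYC and related factors, was held by 2 of the 7 (Eef2 and Eif3a), by 9 of the other 35 (25.7%) and by 12.0% of genes tested. CCAAT stood in 2 of the 7, in 34.3% of the other 35 and in 42.3% of genes tested. A run of at least 8 pyrimidines that begins with C, searched on the coding strand of the 90 bases shown, was found in 4 of the 7, in 13 of the 35 and in 31.6% of genes tested. The motifs were chosen after the promoters had been read, Eif5a2, which was lower, also holds CGGAAG, and CTTCCG can overlap a pyrimidine run. The matches are a description of letters.

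Per length of transcript, elongation factors held the top of the list in WT pancreas. Eef1a1, which delivers aminoacyl-tRNA to the ribosome, stood first at 22427 ± 1386 normalized counts per kb (SD, n = 3). Eef2, the translocase that moves the ribosome by a codon, was next at 4441 ± 523 per kb. Eif5a, the hypusine-bearing factor that helps peptide bonds form at difficult residues, followed at 2044 ± 198 per kb. The first and second places were separate beyond the spread of the WT libraries. Eef1b2, at 1826 ± 288 per kb, overlapped both Eif5a above it and Eef1g below it, at 1739 ± 47.5 per kb, while every WT library of Eif5a stood above every one of Eef1g. Eef1b2 and Eef1g encode subunits of eEF1B, the exchange complex that reloads eEF1A with GTP.

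Among initiation factors, Eif1, which keeps the scanning ribosome open until the start codon is found, led at 1271 ± 102 per kb, followed by the eIF3 subunit gene Eif3h at 1060 ± 103 and the helicase gene Eif4a1 at 894 ± 83.0. The 12 tightly bound eIF3 subunits spanned 221 ± 11.9 per kb for Eif3f to the level of Eif3h, although the complex holds its subunits in equal number. The mRNA of the loosely bound subunit eIF3j came from a gene pair, Eif3j1 at 70.0 ± 9.20 per kb and Eif3j2 at 89.5 ± 13.6. By mean count in WT the order was the opposite, at 379 and 213, with transcript lengths of 5413 and 2379 bases. Eif4e, the cap-binding protein, stood at 44.5 per kb, below its paralogue Eif4e2 at 140. Their mean counts in WT were close, at 222 and 252, so that gap rests mostly on the transcript lengths used, 4991 and 1807 bases. The lowest factor was Eif5a2, the second eIF5A gene, at 3.67 ± 1.66 per kb, and the elongation factor methyltransferase genes lay at 18.9 to 41.9 per kb.

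**Figure D1:**
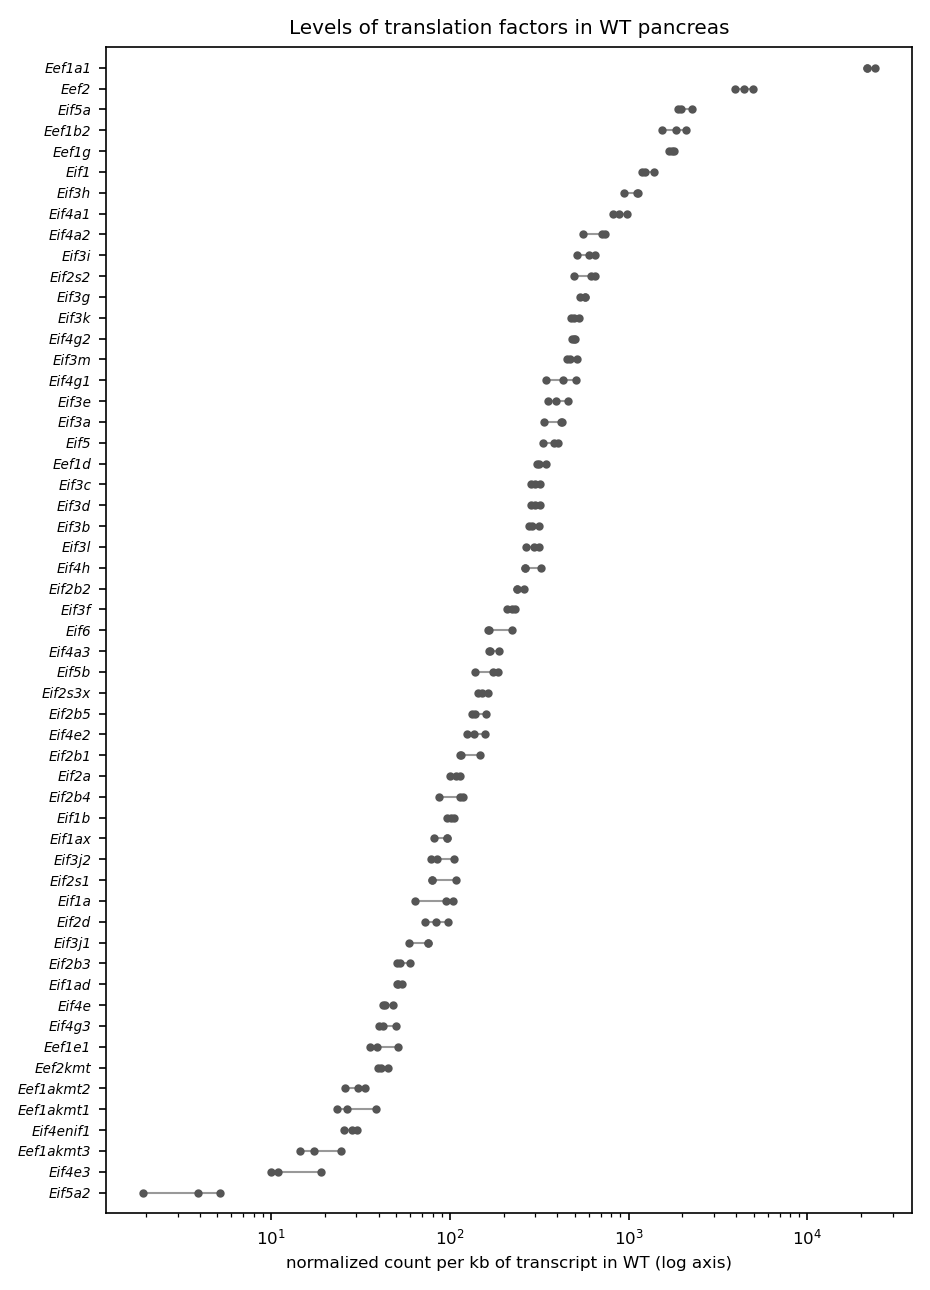
Normalized count per kb of transcript in WT pancreas for the 55 factors, on a log axis, with 1 point for each of the 3 WT libraries and a line over their range. Eef1a1 stands highest at a mean of 22427 per kb and Eif5a2 lowest at 3.67; the length of Eif4g2 is that of a long transcript of 7995 bases, so its place is uncertain.

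Reads of the 55 genes together made up 0.739 ± 0.0191% of all reads in WT (SD, n = 3), 0.661 ± 0.0244% in Snd1 KI and 0.647 ± 0.0369% in S6k2 RK. The WT libraries, at 0.719 to 0.757%, stood above all 6 mutant libraries, at 0.612 to 0.685%. With the enzyme and mitochondrial genes left out of the denominator the order was the opposite, at 2.98 ± 0.0773% in WT, 3.05 ± 0.150% in Snd1 KI and 3.18 ± 0.0529% in S6k2 RK, with only the S6k2 RK libraries (3.14 to 3.24%) clear of WT (2.92 to 3.07%). The direction of a factor's change therefore depends on the denominator, and the tests below use the size factors of the authors. Setting every library to the same total instead moves the median of all genes by -0.28 (log2) in Snd1 KI and by -0.51 in S6k2 RK. Which scaling is right was not tested.

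In S6k2 RK pancreas, 9 of the 55 factor mRNAs were higher than in WT and 0 were lower: the elongation factor genes Eef2, Eef1g and Eef1d, the eIF3 subunit genes Eif3a, Eif3c, Eif3g, Eif3l and Eif3m, and Eif2b4 of the eIF2B exchange factor. The rises were of 0.35 to 0.71 on the log2 scale, and Eef2 rose most. A gene is called higher or lower here at a Benjamini-Hochberg adjusted p below 0.05 over all genes, from limma on log2(normalized count + 1). The members called higher were 16.4%, beside 5.2% of all genes tested called higher in this comparison and 6.83% called lower. The median factor was 0.11 higher, beside a median of 0.002 over all genes, and 39 of 55 had a positive value. The 3 S6k2 RK libraries lay wholly above the 3 WT libraries for 13 factors (23.6%) and wholly below for 1, Eif2b3, beside 14.7% and 13.6% of all genes. At the lower side, 1 factor reached an unadjusted p under 0.05, Eef1e1, and edgeR and DESeq2 also called 0 lower. When all libraries were given equal totals, 0 factors were higher and 35 lower, and 8 of the 9 rises took a negative sign, while Eef2 kept a positive value of 0.19 (adjusted p = 0.0990).

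**Figure D2:**
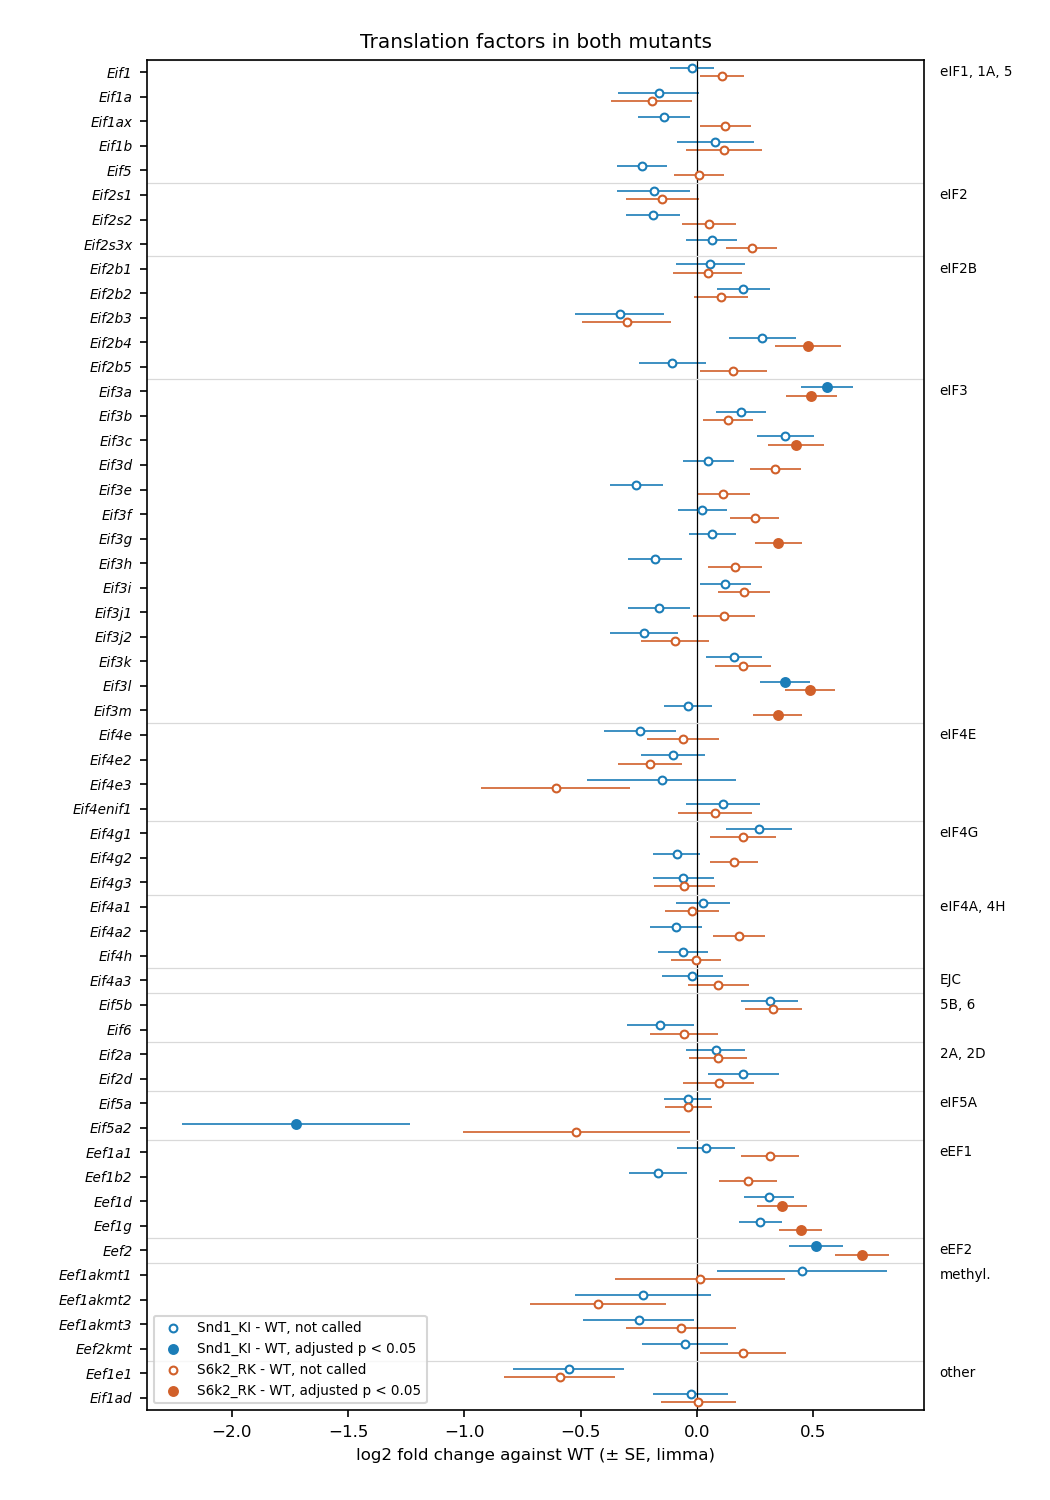
Log2 fold change against WT (± SE, limma, n = 3 libraries a group) of the 55 factors, grouped by role, for Snd1 KI in blue and S6k2 RK in orange; filled points have an adjusted p below 0.05. In S6k2 RK the 9 filled points lie at 0.35 to 0.71, and 8 of them turn negative when libraries are set to equal totals; both series share the WT libraries.

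The largest rise in S6k2 RK was that of the elongation factor gene Eef2. Eef2 (chromosome 10, 81176631 to 81182498, plus strand, GRCm38) read 13649, 12141 and 15369 normalized counts in the 3 WT libraries, 18904, 20595 and 18928 in Snd1 KI, and 20244, 22640 and 24258 in S6k2 RK. Every mutant library stood above every WT library. The change was 0.71 ± 0.12 in S6k2 RK (log2, SE, n = 3 a group, limma adjusted p = 0.000668) and 0.51 ± 0.12 in Snd1 KI (limma adjusted p = 0.0144). Eef2 made up 14.3 ± 1.94% of the summed counts of the 55 factors in WT, 18.6 ± 0.192% in Snd1 KI and 18.5 ± 0.812% in S6k2 RK (SD, n = 3), a share that needs no size factor. The lowest mutant library, at 17.6%, lay above the highest WT library, at 16.1%. Between the mutants Eef2 differed by 0.20 ± 0.12 (limma adjusted p = 0.593).

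The eEF1B complex exchanges GDP for GTP on eEF1A and has catalytic subunits, among them Eef1b2 and Eef1d, and a scaffold subunit, Eef1g. With Eef1a1, these 4 genes had a median of 0.34 in S6k2 RK, which became -0.18 at equal totals. Eef1g (chromosome 19, 8967041 to 8978479, plus strand) read 3150, 3327 and 3247 normalized counts in WT, 3936, 4057 and 3762 in Snd1 KI, and 4109, 4545 and 4612 in S6k2 RK. The 3 groups did not overlap, with S6k2 RK highest. It rose by 0.45 ± 0.09 in S6k2 RK (limma adjusted p = 0.00404), and the value in Snd1 KI was 0.27 ± 0.09 (limma adjusted p = 0.0956). Eef1d (chromosome 15, 75894205 to 75909556, minus strand) read 729, 714 and 799 in WT, 956, 1015 and 820 in Snd1 KI, and 929, 935 and 1030 in S6k2 RK. Both mutants lay above WT, and Eef1d rose by 0.37 ± 0.11 in S6k2 RK (limma adjusted p = 0.0308), with 0.31 ± 0.11 in Snd1 KI (limma adjusted p = 0.1). Eef1b2 took values of 0.22 in S6k2 RK and -0.17 in Snd1 KI, neither called. Eef1a1 read 38861, 43105 and 38736 in WT and 49371, 48493 and 52110 in S6k2 RK, without overlap, yet at 0.31 ± 0.12 it was not called (limma adjusted p = 0.109). In Snd1 KI, Eef1a1 read 39395, 46917 and 38273, on both sides of the WT range, and its change was 0.04.

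**Figure D3:**
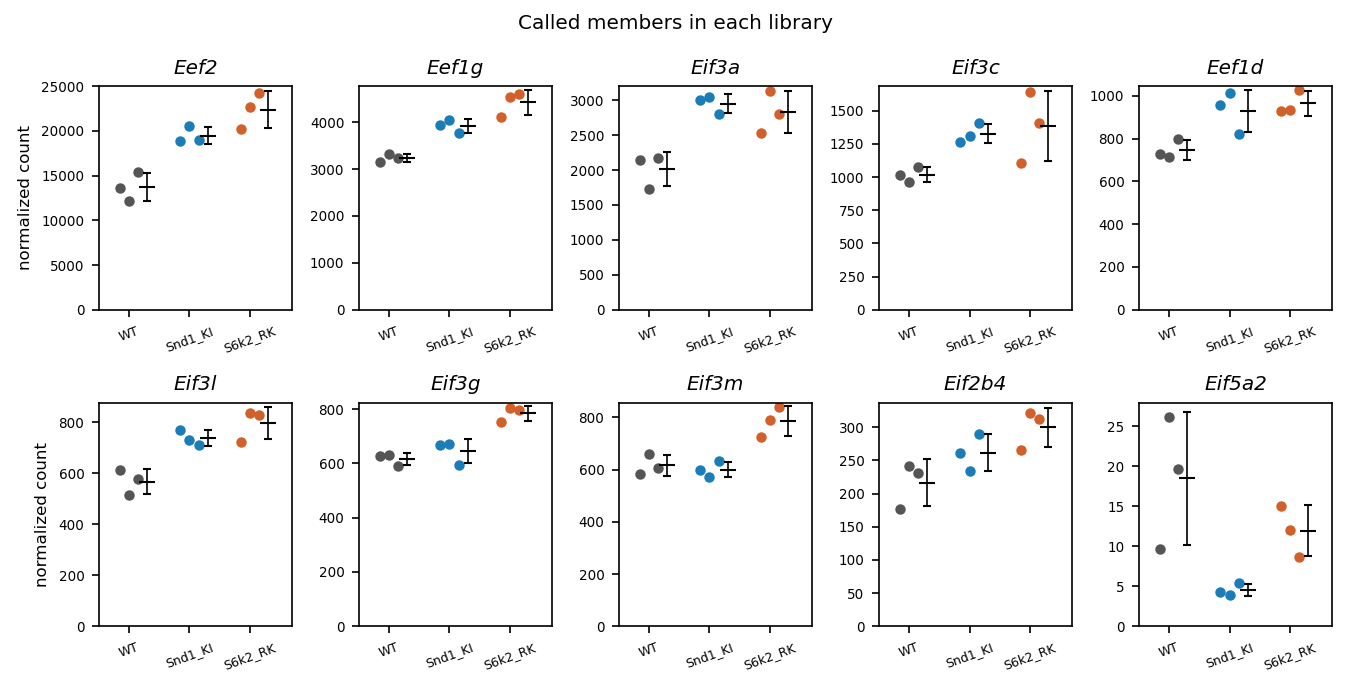
Normalized count of the 10 factors called in either mutant against WT, with 1 point a library, the group mean and its SD (black), and axes that start at 0. Eef2 reads 12141 to 15369 in WT and 18904 or more in every mutant library; Eif5a2 reads 3.87 to 5.35 in Snd1 KI and 9.60 to 26.1 in WT.

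The eIF3 complex is the largest initiation factor: it binds the small ribosomal subunit, holds it open for mRNA and meets eIF4G. Of its 14 measured subunit genes, 5 rose in S6k2 RK, 13 had a positive value and 8 had libraries wholly above WT (beside 5.2% of all genes called higher and 14.7% wholly above), with a median of 0.23; at equal totals 0 were positive and the median was -0.29. In Snd1 KI, 2 rose (Eif3a and Eif3l), 9 were positive and 5 lay wholly above WT (beside 2.4% and 14.1% of all genes), with a median of 0.06 (-0.23 at equal totals). The eIF3 share of the summed factor counts was 10.9 ± 0.380% in WT, 11.3 ± 0.494% in Snd1 KI and 10.7 ± 0.327% in S6k2 RK (SD, n = 3).

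Eif3a (chromosome 19, 60761117 to 60790658, minus strand) encodes the large subunit on which the core assembles. It read 2141, 1728 and 2168 normalized counts in WT, 3008, 3048 and 2803 in Snd1 KI, and 2535, 3134 and 2808 in S6k2 RK. Both mutants stood wholly above WT and overlapped each other. The change was 0.56 ± 0.11 in Snd1 KI (limma adjusted p = 0.00506) and 0.49 ± 0.11 in S6k2 RK (limma adjusted p = 0.00683). Eif3l (chromosome 15, 79075179 to 79094405, plus strand), which pairs with eIF3k at the edge of the core, read 611, 515 and 576 in WT, 771, 732 and 710 in Snd1 KI, and 723, 837 and 828 in S6k2 RK. Its libraries also separated from WT in both mutants, with changes of 0.49 ± 0.11 in S6k2 RK (limma adjusted p = 0.00609) and 0.38 ± 0.11 in Snd1 KI (limma adjusted p = 0.0430).

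Eif3c (chromosome 7, 126546455 to 126566411, minus strand), the other large core subunit, read 1016, 963 and 1075 in WT, 1262, 1313 and 1404 in Snd1 KI, and 1109, 1641 and 1406 in S6k2 RK. The first S6k2 RK library lay close to WT, and the change was 0.43 ± 0.12 there (limma adjusted p = 0.0284) and 0.38 ± 0.12 in Snd1 KI (limma adjusted p = 0.0777). Eif3g (chromosome 9, 20894349 to 20898623, minus strand), an RNA-binding subunit that works in scanning, read 626, 630 and 589 in WT, 668, 673 and 595 in Snd1 KI, and 752, 805 and 796 in S6k2 RK. Only the S6k2 RK libraries stood apart, by 0.35 ± 0.10 (limma adjusted p = 0.0296), beside 0.07 in Snd1 KI. Eif3m (chromosome 2, 104999656 to 105017080, minus strand), a subunit of the core octamer, read 584, 660 and 606 in WT, 597, 572 and 632 in Snd1 KI, and 724, 792 and 840 in S6k2 RK. Again the S6k2 RK libraries were above all others, with 0.35 ± 0.10 against WT (limma adjusted p = 0.0373) and 0.38 ± 0.10 against Snd1 KI (limma adjusted p = 0.188). Eif3d, the subunit that can itself bind the cap, missed the threshold in S6k2 RK at 0.34 ± 0.11 (limma adjusted p = 0.0504) and read 0.05 in Snd1 KI.

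The eIF3 genes thus took unlike values within Snd1 KI pancreas. At one end stood Eif3a at 0.56, and at the other Eif3e, a core subunit gene first known as a site of mouse mammary tumour virus insertion, at -0.26 ± 0.11 (limma adjusted p = 0.204), with Eif3h at -0.18. Eif3e read 592, 687 and 533 in WT, 483, 479 and 543 in Snd1 KI, and 643, 629 and 680 in S6k2 RK, so that 2 of 3 Snd1 KI libraries lay below WT. The log2 ratio of Eif3e to Eif3a was -1.74 ± 0.362 in WT, -2.56 ± 0.166 in Snd1 KI and -2.11 ± 0.178 in S6k2 RK (SD, n = 3), a difference of -0.82 between Snd1 KI and WT, whose libraries did not overlap. That pair was picked for its difference and gets no test.

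**Figure D4:**
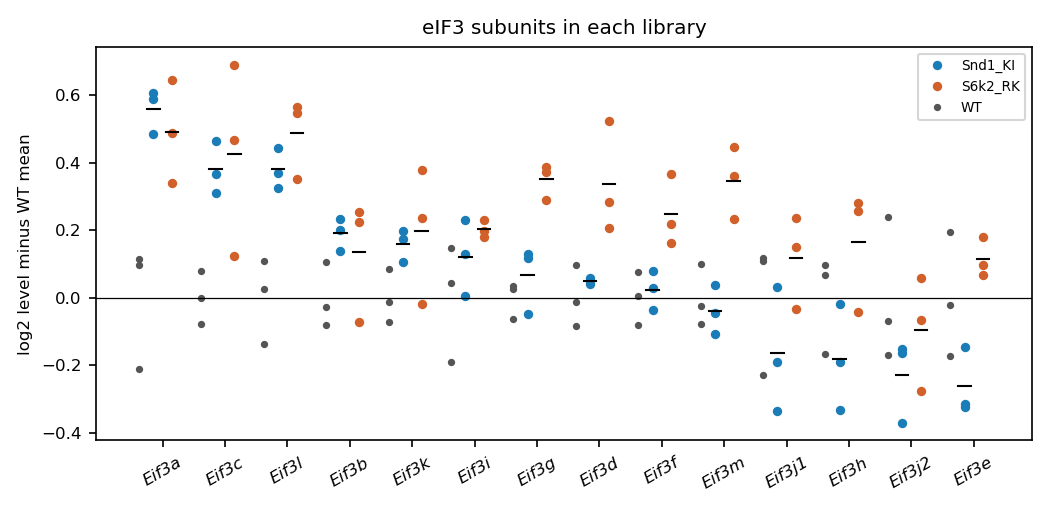
Log2 level of 14 eIF3 subunit genes in each library, as log2(normalized count + 1) minus the WT mean of that gene; grey, WT; blue, Snd1 KI; orange, S6k2 RK; bars are the means of the mutant groups, and genes run in the order of the Snd1 KI mean. Snd1 KI means run from 0.56 for Eif3a to -0.26 for Eif3e, while 13 of 14 S6k2 RK means lie above 0; at equal totals all the S6k2 RK rises called here take a negative sign.

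eIF2 carries the initiator tRNA, and eIF2B recharges it with GTP. Eif2b4 (chromosome 5, 31187558 to 31193430, minus strand), the delta subunit of eIF2B, read 176, 241 and 231 normalized counts in WT, 262, 234 and 290 in Snd1 KI, and 266, 321 and 313 in S6k2 RK. The S6k2 RK libraries lay above WT, by 0.48 ± 0.14 (limma adjusted p = 0.0369), and Snd1 KI, at 0.28 ± 0.14, was not called (limma adjusted p = 0.283). The other 4 eIF2B genes and the 3 of eIF2 were not called in either mutant. They ran from -0.30 for Eif2b3, whose S6k2 RK libraries lay wholly below WT, to 0.24 for the eIF2 gamma subunit gene Eif2s3x in S6k2 RK, and from -0.33 for Eif2b3 to 0.20 for Eif2b2 in Snd1 KI.

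No gene of the cap-binding, scaffold and helicase groups was called in either mutant by limma, edgeR or DESeq2, and 0 of the 10 reached an unadjusted p under 0.05 in either. The 3 eIF4G genes, scaffolds that join cap, helicase and eIF3, ran from -0.05 to 0.20 in S6k2 RK and from -0.09 to 0.27 in Snd1 KI. The 4 genes of the eIF4E group ran from -0.61 for Eif4e3 to 0.08 in S6k2 RK. The helicase genes Eif4a1 and Eif4a2 and their partner Eif4h ran from -0.02 to 0.18 in S6k2 RK. The 5 genes of start-site selection (Eif1, Eif1b, Eif1a, Eif1ax and Eif5) ran from -0.19 to 0.12 in S6k2 RK and from -0.24 to 0.08 in Snd1 KI. Eif5b, which joins the ribosomal subunits, read 0.33 ± 0.12 in S6k2 RK (limma adjusted p = 0.0856) and 0.31 ± 0.12 in Snd1 KI (limma adjusted p = 0.149). Eef1e1, whose product sits in the multi-synthetase complex and is no elongation factor in spite of its name, read -0.59 and -0.55, neither called.

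In Snd1 KI pancreas, 3 factors were higher than in WT (Eef2, Eif3a and Eif3l) and 1 was lower, Eif5a2, a gene close to the minimum mean of 10. The 3 were 5.45% of the factors, beside 2.4% of all genes called higher and 3.2% called lower. Libraries lay wholly above WT for 10 factors (18.2%) and wholly below for 3 (5.45%), beside 14.1% and 13.0% of all genes. The median factor read -0.03, and 25 of 55 were positive. At equal totals 0 factors were higher and 13 lower, while the 3 rises kept a positive value (0.10 to 0.27) without being called. The 3 rises are among the 9 of S6k2 RK, and both comparisons use the same WT libraries.

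Eif5a2 (chromosome 3, 28781276 to 28798846, plus strand) is a second eIF5A gene of narrow tissue range. It read 9.60, 26.1 and 19.7 normalized counts in WT, 4.33, 3.87 and 5.35 in Snd1 KI, and 15, 12.1 and 8.66 in S6k2 RK. Snd1 KI was below every other library, at a few reads a library, and the change against WT was -1.72 ± 0.49 (limma adjusted p = 0.0445). The mean of Eif5a2 over the 9 libraries, 11.6, passed the minimum of 10 only through WT (mean 18.5) and S6k2 RK (11.9), not Snd1 KI (4.52). The call is thus not independent of how the genes were chosen. S6k2 RK read -0.52 against WT, with overlap. Its main paralogue Eif5a read -0.04 in both mutants.

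Between the mutants, 0 factors were called in either direction by limma, with 14 at an unadjusted p under 0.05, and edgeR called 0 with 10 at that p. DESeq2 called 1, Eif3m, at 0.38 (DESeq2 adjusted p = 0.0313), with 12 at that unadjusted p. Of all genes, limma called 0.0586% higher in S6k2 RK and 0.0586% lower, and DESeq2 called 49 of 11953 higher and 4 lower. S6k2 RK libraries lay wholly above Snd1 KI for 14 factors (25.5%) and wholly below for 0, beside 7.81% and 7.35% of all genes, and the median factor was 0.10 higher. The 14 were Eif1, Eif1ax, Eif5, Eif2s2, Eif3d, Eif3e, Eif3f, Eif3g, Eif3m, Eif4a2, Eef1a1, Eef1b2, Eef1g and Eif5a2. At equal totals that median was -0.13, beside a median of -0.23 over all genes, and a scaling leaves the distance between these medians nearly unchanged. Across the 55 genes, the SE of a change was 0.09 to 0.49 with a median of 0.12. The smallest change called against WT was 0.35 in S6k2 RK and 0.38 in Snd1 KI, and smaller differences were in general not detectable with 3 libraries a group. Between the mutants larger values also went uncalled, such as 0.39 for Eef1b2 (limma adjusted p = 0.255) and 1.21 for Eif5a2 (limma adjusted p = 0.413).

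**Figure D5:**
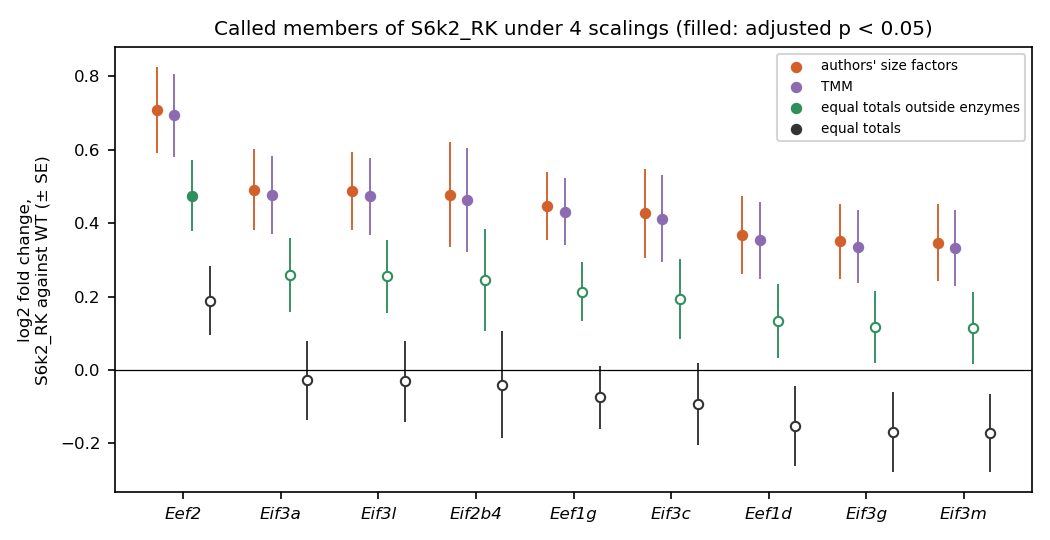
Log2 fold change (± SE, limma, n = 3 a group) of the 9 factors called higher in S6k2 RK under 4 scalings: the size factors of the authors, TMM, equal totals over genes outside the enzyme list, and equal totals over all genes; filled points have an adjusted p below 0.05. All 9 are positive and called under the first 2, only Eef2 is called under the third, and at equal totals 8 are negative while the median of all genes, not drawn, is -0.51.

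Set against the median gene, the rises had to be about the same under every scaling, since a scaling moves nearly all genes alike. Eef2 stood 0.71 above that gene with the size factors of the authors and 0.70 at equal totals, and the smallest rise, Eif3m, 0.34 under both. These distances are therefore no check of the rises. TMM scaling, which also centres on the bulk of genes, called all 9 factors of S6k2 RK and all 3 of Snd1 KI higher. With totals made equal over genes outside the enzyme list, the values of the 9 were 0.11 to 0.48, and 1 of the 9 was called, Eef2 (limma adjusted p = 0.00330). In Snd1 KI 2 of the 3 were called there, Eif3a and Eef2.

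Calls also depended on single libraries. Leaving out each of the 9 libraries in turn, Eef2, Eef1g, Eif3a and Eif3l stayed called in S6k2 RK in all 9 fits, and Eif3a in Snd1 KI. Eef2 in Snd1 KI lost its call in 4 fits, without WT replicate 1 or 2 or Snd1 KI replicate 2 or 3, and ranged from 0.43 to 0.60. Eif3l in Snd1 KI lost it in 6 fits, without any of the 6 libraries compared, and ranged from 0.31 to 0.44. Eif5a2 lost it in 5 fits, without WT replicate 2 or 3 or any Snd1 KI library, and ranged from -2.11 to -1.43. In S6k2 RK, Eif3c and Eef1d lost theirs without WT replicate 1 or 2 or S6k2 RK replicate 2 or 3, and Eif3g without those or WT replicate 3. Eif2b4 lost its call without WT replicate 1, Snd1 KI replicate 1 or S6k2 RK replicate 2 or 3. Eif3m lost it without WT replicate 1 or 3, any Snd1 KI library, or S6k2 RK replicate 2 or 3. Within S6k2 RK, replicate 1 stood lower for many factors: the median factor deviated from its mean over libraries by 0.02 there, and by 0.16 and 0.13 in replicates 2 and 3. Without that library, 11 factors were higher in S6k2 RK and 5 in Snd1 KI. Over all genes 856 and 383 were then called higher, beside 621 and 287 with all libraries. Without S6k2 RK replicate 2 or 3 or WT replicate 1, 4 were higher in S6k2 RK, and without Snd1 KI replicate 2 or 3 or WT replicate 1 or 2, 1 in Snd1 KI. The calls over all genes fell as well. In the same order, 361, 247 and 317 genes were higher in S6k2 RK, and 83, 89, 140 and 79 in Snd1 KI. The counts of factors thus moved with the number of genes called.

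Genes with a paralogue were also compared as ratios within a library, which no scaling touches. Of 8 pairs, 3 separated Snd1 KI from WT, each at the smallest p that 3 libraries against 3 allow (exact permutation test, two-sided, p = 0.1, adjusted p = 0.267), and 0 separated S6k2 RK from WT. Of all single genes, 14.1% lay wholly above and 13.0% wholly below WT in Snd1 KI, and 14.7% and 13.6% in S6k2 RK. The share over ratios of other genes was not counted. The scaffold-like Eif4g2, which lacks the cap-binding part, was lower relative to Eif4g1 in Snd1 KI by 0.35 on the log2 scale, and Eif4g3 relative to Eif4g1 by 0.33. Both ratios share Eif4g1, which itself read 0.27 in Snd1 KI, so they are not separate results. Eif5a2 relative to Eif5a read -1.89 in Snd1 KI against WT, with the limit given above for the choice of Eif5a2. Eif4a2 to Eif4a1, Eif1b to Eif1, Eif1ax to Eif1a, and the Eif4e2 and Eif4e3 ratios to Eif4e overlapped between Snd1 KI and WT. Between the mutants 3 pairs separated, each with the higher ratio in S6k2 RK: Eif1ax to Eif1a, Eif4g2 to Eif4g1 and Eif5a2 to Eif5a. Their differences were 0.29, 0.32 and 1.37 (exact permutation test, p = 0.1, adjusted p = 0.267).

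Features of the genes were set beside the changes as a description across genes, which are not independent replicates. The mean level is also what the minimum of 10 was applied to, for the factors and for all genes tested alike; GC content and length played no part in the choice. Over the 55 factors, the S6k2 RK change had a Spearman coefficient of 0.63 with the mean level, beside 0.31 over 11953 genes, and of 0.35 with the GC content of the transcript, beside 0.05 over the 11936 genes with a transcript. In Snd1 KI the coefficients were 0.35 with level and 0.55 with GC, beside 0.23 and 0.13. Transcript length gave -0.04 and -0.08 in the 2 mutants. The 9 risers of S6k2 RK had a median of 881 normalized counts and all lay at 259 or more, beside a median of 375 for the other 46 factors and 91.5 for all genes, and higher counts give a smaller error. Of 12 measured factors whose mRNAs are known TOP messages in human cells, 12 were positive in S6k2 RK and 5 were called higher, with a median of 0.28 (-0.24 at equal totals), beside 4 of the other 43 and a median of 0.08. In Snd1 KI, 3 of the 12 were called higher, with a median of 0.05 (-0.23 at equal totals), beside 0 of 43 and -0.04. Of all genes, 5.2% were called higher in S6k2 RK and 2.4% in Snd1 KI. Among 77 measured cytosolic ribosomal protein genes, 12 were called higher and 0 lower in S6k2 RK, and 0 higher and 5 lower in Snd1 KI. A link to TOP tracts was not tested.

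Around the factors, the list of 4E-binding proteins and other regulators had 4 of 10 measured genes higher and 2 lower in S6k2 RK, and 2 higher and 1 lower in Snd1 KI. Of all genes, 5.2% were called higher and 6.83% lower in S6k2 RK, and 2.4% and 3.2% in Snd1 KI. With edgeR or with TMM scaling, 3 of the 10 were higher in S6k2 RK. Pdcd4, the eIF4A inhibitor that S6 kinases mark for breakdown, read 750, 756 and 784 normalized counts in WT, 1030, 1037 and 1063 in Snd1 KI, and 1218, 1134 and 1460 in S6k2 RK. The 3 groups did not overlap. Pdcd4 rose by 0.73 ± 0.10 in S6k2 RK (limma adjusted p = 0.000239) and by 0.45 ± 0.10 in Snd1 KI (limma adjusted p = 0.0164), and at equal totals it kept a positive value of 0.21 and 0.17 without being called. Eif4b, the helicase cofactor that S6 kinases phosphorylate, rose by 0.53 ± 0.09 in S6k2 RK (limma adjusted p = 0.00120), at 2276 to 2472 against 1516 to 1748 in WT, a value of 0.01 at equal totals. Mknk2, which encodes a kinase of eIF4E, fell by 0.75 in S6k2 RK (SE 0.14, limma adjusted p = 0.00200) and by 0.51 in Snd1 KI (SE 0.14, limma adjusted p = 0.0420), and was lower under every scaling. Eef2k, the kinase that inactivates eEF2, was higher in Snd1 KI by 0.48 ± 0.13 (limma adjusted p = 0.0352) and read 0.29 ± 0.13 in S6k2 RK, where it was not called (limma adjusted p = 0.151). In Snd1 KI it was also not called with equal totals outside the enzymes (0.38, limma adjusted p = 0.0783) or over all genes (0.19, limma adjusted p = 0.321). Eif4ebp1 and Larp1, repressors of cap-dependent and of TOP translation, were higher in S6k2 RK by 0.37 and 0.48. At equal totals both had a negative sign and neither was called. Larp1, called with the size factors of the authors (limma adjusted p = 0.0481), was not called with TMM scaling (limma adjusted p = 0.0520). Gigyf1 was lower in S6k2 RK by 0.57.

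Of 9 eIF2-alpha kinase and phosphatase genes, 2 were higher in S6k2 RK (1 by edgeR), the kinase gene Eif2ak1 and the kinase inhibitor gene Dnajc3, at 0.50 and 0.39 (negative at equal totals), and 0 were called in Snd1 KI by limma, edgeR or DESeq2 (3 at an unadjusted p under 0.05). In the poly(A)-binding list of 6, Paip2b was higher by 0.48 and Pabpn1 lower in S6k2 RK, and in the list of 8 measured termination and recycling genes Hbs1l was higher by 0.38, while Paip2b and Hbs1l were negative at equal totals. Among 9 measured mitochondrial translation factors, 9 diphthamide and hypusine synthesis genes and 4 DEAD or DEAH helicases of initiation, 0 were called in either mutant by limma, edgeR or DESeq2. With limma, 2 of the mitochondrial factors reached an unadjusted p under 0.05 in each mutant, and 0 of the other 13 did. These counts also depended on the scaling. At equal totals, 4 of the 4 helicases and 4 of the 9 diphthamide and hypusine genes were called lower in S6k2 RK. In Snd1 KI, 2 and 0 were called lower there. Over all 11953 genes, that scaling called 5954 lower in S6k2 RK and 1581 in Snd1 KI.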

How the data were processed

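Per the labels' protocols, poly(A) RNA of snap-frozen pancreas was made into strand-specific libraries and sequenced as paired reads of 150 bases. The authors deposited 1 table of normalized counts (a signal, counts divided by size factors) for 46078 genes and 9 libraries. Per the submitters' processing notes DESeq2 and the build GRCm38 (mm10) were used; the aligner and counter are not given in the sources used here. Low values were whole multiples of 1 step per library, and 100% of values came out as whole reads (tolerance 1e-06), except that the step of S6k2 RK replicate 1 lies so near 1 that it cannot be told from plain counts.

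From these values, limma 3.58.1 (R 4.3.3) was fitted with a trend on log2(normalized count + 1) over 11953 genes (minimum mean 10), with all 9 libraries in the fit, two-sided, Benjamini-Hochberg adjusted over all genes. Fold changes are on that scale. The data are not raw counts, so edgeR 4.0.16 and DESeq2 1.42.0 ran on recovered reads as alternatives. Levels per kb use GENCODE release 21 transcript lengths (basic set, principal where marked). No 2 libraries of a group agreed within sampling noise. The study gives 3 animals a group, and p-values measure the spread between them. Fits were tested on simulated data.

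The genes, lists and tests were chosen with earlier results of these data known. Genes named with values are those called in a comparison, and, beside them, subunits of the same complex, paralogues and members called elsewhere. Eif5b, Eef1e1, the genes given for their level and the regulators around the factors were named after their values were seen, and the ratio of Eif3e to Eif3a, the role-group shares and the motifs were added after seeing the data.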

Additional observations from a re-analysis of the deposited data

How the results depend on the processing

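The deciding choice was the scaling. Setting equal totals gave 0 factors higher and 13 lower in Snd1 KI (median of the factors -0.31), 0 higher and 35 lower in S6k2 RK (median -0.41), and a median of -0.13 between the mutants. There the S6k2 RK values of 8 rises became -0.15 for Eef1d, -0.0738 for Eef1g, -0.0403 for Eif2b4, -0.0284 for Eif3a, -0.0931 for Eif3c, -0.17 for Eif3g, -0.0314 for Eif3l and -0.17 for Eif3m. Equal totals outside the enzymes gave 1 higher and 2 lower in S6k2 RK, with medians of -0.12 in S6k2 RK, -0.12 in Snd1 KI and -0.0388 between them. In percentage points, the share of reads taken by the factors, differences of -0.0787, -0.0924 and -0.0137 (Snd1 KI to WT, S6k2 RK to WT, S6k2 RK to Snd1 KI), became 0.0647, 0.198 and 0.133 outside the enzymes and -0.0484 for Snd1 KI without Eef1a1 and Eef2. Fitting only the groups compared gave 5 higher in Snd1 KI and 4 in S6k2 RK. Eif5a2 was not called with a minimum mean of 50 (not tested), with no minimum mean or with the replicate block, so that 0 factors were lower in Snd1 KI. DESeq2 called 1 factor higher between the mutants. Same-numbered libraries did not deviate together (correlations of -0.0781 to 0.0454), so the numbers were not taken as pairs; with the replicate number as a block, 8 factors were higher in S6k2 RK and 2 in Snd1 KI. Leaving out 1 library at a time gave 4 to 11 factors higher in S6k2 RK and 0 to 1 lower, 1 to 5 higher in Snd1 KI and 0 to 1 lower, and 0 called between the mutants. The medians then ran from 0.0712 to 0.162 in S6k2 RK, -0.03 to 0.01 in Snd1 KI and 0.0779 to 0.157 between the mutants, share differences from -0.0907 to -0.0663, -0.112 to -0.075 and -0.0331 to 0.00366 (positive without S6k2 RK replicate 3), in the order above, and separated paralogue pairs numbered 3 to 5 for Snd1 KI to WT (5 without WT replicate 3), 0 to 2 for S6k2 RK to WT and 3 to 5 between the mutants (5 without S6k2 RK replicate 1). Pseudocounts of 0.5 and 5, TMM, the robust fit and edgeR gave 8 to 10 factors higher in S6k2 RK and 3 in Snd1 KI. The cause of each difference was not tested. Over all genes, equal totals called 37 higher and 5954 lower in S6k2 RK (621 and 816 with the size factors of the authors) and 45 and 1581 in Snd1 KI (287 and 383), and equal totals outside the enzymes called 123 and 1714, and 152 and 499. A minimum mean of 50, which tested fewer genes, called 595 and 446 in S6k2 RK and 243 and 166 in Snd1 KI, and fitting only the groups compared called 358 and 658 in S6k2 RK. Leaving out 1 library at a time called 247 to 856 of all genes higher in S6k2 RK and 79 to 383 in Snd1 KI.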
